A study of Mus musculus with 34 samples.

Results

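The liver tissue described here was labelled Normal rather than tumour. Of the livers 10 came from mice given high-LET radiation and 6 from sham-irradiated mice. They were chosen by their labels, pathology Normal with radiation High-LET or non-IR, and make up 16 of the 34 arrays of the series. All mice were males of the inbred strain C3H/HeNCrl, in which liver tumours also arise without irradiation. The High-LET livers came from mice given a single whole-body dose of 1 Gy as young adults, and the study's sample list gives Fe ions for all 10. The sham livers (0 Gy) came from mice handled in the same way without exposure. The mice were killed when moribund, when they showed signs of a tumour or at a fixed old age, and their livers were snap frozen. Dead mice were necropsied as well. The paper describes the non-HCC livers of irradiated mice as age-matched. The age and hour at death of each mouse and its state of feeding are not given in the sources used here. Nor is it given whether a liver labelled Normal held a tumour elsewhere. Each array is 1 mouse.

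High-LET radiation deposits its energy densely along the track of each particle, which leaves clustered DNA damage that is harder to repair than the scattered damage of γ-rays. Acute damage activates p53, which induces cell cycle inhibitors such as Cdkn1a and proapoptotic genes such as Bbc3. The comparison of irradiated with sham livers asks what expression remained different long after exposure in tissue that had not become a tumour. Liver expression also follows signals other than radiation damage. The circadian clock drives rhythmic transcription factors such as Dbp, and in male rodents the pulses of growth hormone activate STAT5 in hepatocytes, which induces its own feedback inhibitors Cish and Socs2 and lowers Bcl6.

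Expression was read on Illumina mouse BeadChips, where the brightness of each bead-bound probe follows the amount of a transcript. Levels below are log2 of the background-corrected and quantile-normalized intensity, and a difference of 1 is a 2-fold change. Differences are High-LET minus sham livers, estimated with limma on the 16 livers alone with the BeadChip as a random block, so they can depart a little from the difference of the plain means. The livers lay on 7 BeadChips. Of these 3 held both groups, with 6 High-LET and 3 sham livers, while 4 High-LET and 3 sham livers lay on BeadChips without the other group. Livers on the same BeadChip were correlated by 0.17 beyond their group, and the BeadChips held a median of 49.8% of a probe's variance, where 40% would fall to 7 BeadChips without any effect. Between 20377 and 23829 of the array's 45281 probes exceeded background in a liver. The mean was 22207 ± 1296 (SD) in High-LET and 21971 ± 674 (SD) in sham livers, a difference that did not pass a two-sided exact permutation test (p = 0.679). Single livers stood apart in several genes below, sham replicate 1 in Cish and genes that varied with it, High-LET replicate 5 in acute-phase genes, and sham replicate 3 with High-LET replicates 3 and 10 in clock genes, and the values without them are given there.

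No transcript passed the threshold between the 10 irradiated and the 6 sham livers. Of 23348 probes tested, which read 12178 named genes, 0 were called higher (0%) and 0 lower (0%) at a Benjamini-Hochberg adjusted p under 0.1 in limma with a fold above 1.3. The smallest adjusted p was 0.123. At an unadjusted p under 0.05 there were 715 probes (3.06%), of which 347 (1.49%) were higher and 368 (1.58%) lower in High-LET livers. The fit with BeadChip as a fixed block called 0 probes and had 962 (4.12%) under this limit, and the fit without BeadChip called 0 and had 728 (3.12%).

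On the scale used here most differences were closely bounded. The median standard error was 0.06 on the log2 scale, and the 95% interval lay within a 1.3-fold change in either direction for 94.9% of the probes and within a 2-fold change for 99.7%. Estimates above 1.3-fold were found for 88 probes and above 2-fold for 8. The offset added in the background correction shrinks differences of dim probes, so for those probes the bounds apply to the shrunken values. With the authors' normalized values Phlda3, near background, differed by 0.61 against 0.13 here, and the brighter Efna1 by 0.51 against 0.45. The spread was alike in both groups, with a median SD over probes of 0.12 in High-LET and 0.12 in sham livers. High-LET and sham livers had no overlap in 3 probes (0.0128%). The clearest of these was ILMN_2735350, a probe without a gene name in the annotation used, which ranged from 7.41 to 8.27 in High-LET and from 6.58 to 7.22 in sham livers. Its difference was 0.83 ± 0.13 (SE), with an adjusted p of 0.123 in limma. It was the probe with the smallest p, and was named after its values were seen. It passed the threshold when sham replicate 1, High-LET replicate 2 or the BeadChip of sham replicates 1 and 2 was left out, and when only probes above background on all 16 livers were tested.

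The groups also overlapped on the main axes of variation. The first principal component held 20.2% of the variance of the 16 livers, and its scores ran from −22.2 to 14.1 in High-LET and from −9.41 to 14.1 in sham livers. The groups overlapped over the whole sham range (exact permutation p = 0.557, adjusted over both components 0.578). The BeadChips held 79.5% of the variance of this component. The second component held 12.9% of the variance, with scores from −14.1 to 21.4 in High-LET and from −14.0 to 7.03 in sham livers (exact permutation p = 0.578, adjusted 0.578), and the BeadChips held 49.9% of it. Among named genes the largest weights on the first component were those of Dbp, Upp2 and Rgs16, and on the second those of Cish, Dbp and Cib3.

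**Figure D1:**
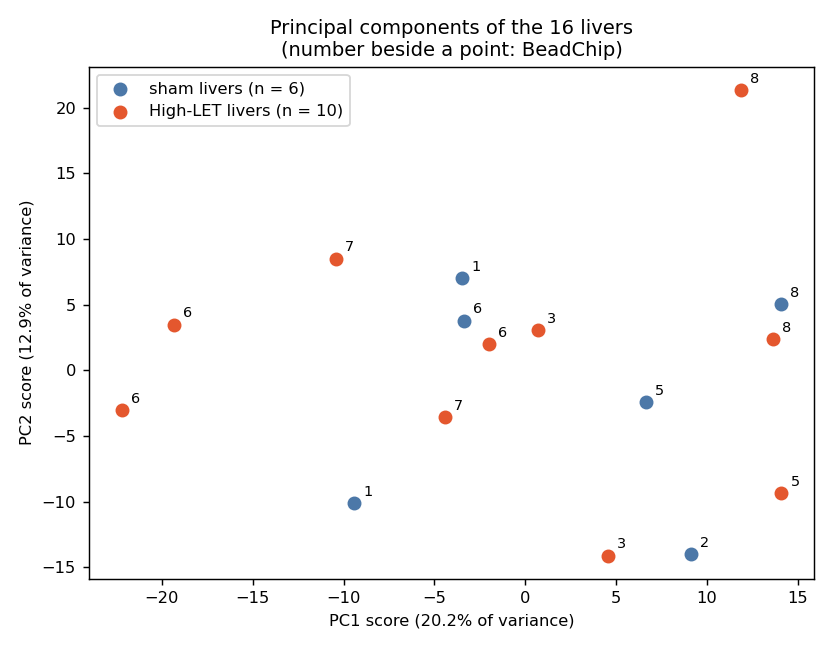
Scores of the 16 livers on the first and second principal components (arbitrary units), coloured by group, with the BeadChip written beside each point. High-LET and sham livers are intermixed, and the lowest first-component scores, −22.2 and −19.3, belong to 2 High-LET livers of BeadChip 6.

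Although none passed, the named genes nearest to the threshold are described next, the 10 in each direction with the smallest p among genes more than 1.3-fold apart. Their unadjusted p ran from 0.0001 to 0.0126 and their adjusted p in limma was 0.959 or above, and in all 20 the groups overlapped. They were chosen on these livers, so their directions are a description. Within each of the 3 BeadChips that held both groups all 20 had the direction of the whole comparison. With BeadChip as a fixed block 18 of the 20 had an unadjusted p under 0.05, next to 4.12% of all probes. The exceptions were Mvd (0.32, p = 0.161) and Ddit4 (0.49, p = 0.0686). Each shared BeadChip held 1 sham liver, replicates 4, 5 and 6. Sham replicates 1 to 3 lay on BeadChips without High-LET livers, so neither the within-BeadChip nor the fixed-block differences draw on them. Among these is sham replicate 1, which lay on the side of the High-LET livers in several genes below. The same livers had served to choose the 20 genes, so neither count is a replication.

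Among the genes with higher values in High-LET livers, a pair belongs to 1 signalling system. Efna1 encodes a membrane-bound ephrin ligand and Epha2 one of its receptors. Efna1 had a lowest, median and highest level of 8.32, 8.77 and 9.08 in sham livers and of 8.83, 9.22 and 9.52 in High-LET livers, a difference of 0.45 ± 0.11 (SE). Epha2 had levels of 6.46, 6.61 and 7.36 in sham and of 6.75, 7.06 and 7.39 in High-LET livers, a difference of 0.40 ± 0.12 (SE). For either gene, each of the 10 High-LET livers lay above the mean of the sham livers. For Epha2 the level of 7.36 in sham replicate 1 was above that of all High-LET livers but 1, and sham replicate 2 lay above the lowest High-LET liver.

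Transcriptional regulators stood beside them. Hes1, a repressor induced by Notch, had the smallest p among named genes with higher values. It had levels of 7.36, 7.64 and 7.86 in sham and of 7.73, 8.17 and 8.56 in High-LET livers, a difference of 0.54 ± 0.11 (SE) with a 95% interval from 0.31 to 0.78. Only 1 High-LET liver lay below the highest sham level. Tbx3, a T-box factor and Wnt target of hepatocytes near the central vein, differed by 0.44 ± 0.11 (SE), and its other probes had differences of 0.38, 0.27 and 0.35. Id1, an inhibitor of DNA binding by helix-loop-helix factors, differed by 0.41 ± 0.15 (SE). In sham replicate 1 its level was 7.88, next to a highest of 7.09 in the other 5 sham livers, and without it the difference was 0.54 (unadjusted p = 6.84e-05), and Id1 was not called. Over all livers left out in turn the Id1 difference lay between 0.33 and 0.54, lowest without sham replicate 4.

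The remaining genes with higher values act in metabolism and growth control. G0s2, an inhibitor of the main triglyceride lipase, ranged from 9.39 to 10.31 in High-LET livers, with a median of 9.96. In sham livers it ranged from 7.90 to 9.10 in 5 and was at 10.77 in sham replicate 1. The difference was 0.79 ± 0.27 (SE). Without sham replicate 1 it was 1.04 with an adjusted p of 0.0824 in limma, and G0s2 was then called. Over all livers left out in turn the G0s2 difference lay between 0.55 and 1.04, lowest without sham replicate 4. Mvd, an enzyme of the mevalonate pathway to cholesterol, differed by 0.57 ± 0.17 (SE). Depp1, a FOXO target linked to autophagy, differed by 0.88 ± 0.27 (SE), Ddit4, an inhibitor of mTORC1, by 0.55 ± 0.19 (SE), and Tob2, an antiproliferative protein, by 0.50 ± 0.16 (SE). For Tob2 the estimates of the other tested probes were 0.25, 0.33 and −0.01.

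Among the genes with lower values, Cish stood out by its size. Its level was 10.11 to 11.47 in 5 sham livers and 6.86 in sham replicate 1. In High-LET livers the lowest, median and highest levels were 6.52, 7.34 and 10.14, so that only 1 of the 10 exceeded any of those 5 sham livers. The difference was −2.52 ± 0.67 (SE), with a 95% interval from −3.92 to −1.12 and an unadjusted p of 0.0013. Within the 3 shared BeadChips, none of which held sham replicate 1, the differences were −4.29, −1.33 and −4.66. Without sham replicate 1 the difference was −3.05, with an adjusted p of 0.102 in limma, and over all livers left out in turn it lay between −3.05 and −2.15.

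Other genes of growth hormone signalling were looked up after the values of Cish were seen. Socs2, a second feedback inhibitor, had levels of 9.13, 9.89 and 11.44 (lowest, median, highest) in sham livers and of 7.81, 9.08 and 11.71 in High-LET livers. The groups overlapped over the whole sham range, and the difference was −1.03 ± 0.49 (SE) with an unadjusted p of 0.049. Leaving out each liver in turn gave differences from −1.30 to −0.69 with an unadjusted p of up to 0.185. Bcl6, a repressor that growth hormone lowers, differed by 0.61 ± 0.39 (SE) with an unadjusted p of 0.141. Sham replicate 1, the sham liver with the lowest Cish and Socs2, had the highest Bcl6 of its group, 10.75. Igf1 and Igfals, slower products of the axis, and the receptor Ghr were closely bounded. Igf1, the hormone that mediates growth, differed by −0.01 with an interval from −0.13 to 0.12. Igfals, its carrier, differed by −0.08 with an interval from −0.24 to 0.08, and the receptor Ghr by −0.11 with an interval from −0.30 to 0.09.

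Of the 10 genes with lower values 4 encode transcription factors of the homeobox and forkhead families. Whether such factors were more frequent here than among all genes was not tested. Hhex, a homeobox factor of liver development, had levels of 10.82, 11.27 and 11.89 in sham and of 10.15, 10.63 and 11.15 in High-LET livers. The difference was −0.78 ± 0.17 (SE), and every High-LET liver lay below the sham mean. Foxa1 and Foxa2, forkhead proteins that open chromatin at liver genes, differed by −0.61 ± 0.18 (SE) and −0.46 ± 0.14 (SE). Without sham replicate 6, the sham liver with the highest level of either, they differed by −0.46 and −0.31. The forkhead gene Foxq1 differed by −1.15 ± 0.33 (SE). In Foxq1, too, sham replicate 1 was at 9.67 and the other 5 sham livers were at 10.89 to 12.10.

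Sham replicate 1 stood with the High-LET livers in 2 more genes, Rgs3, which speeds the inactivation of G proteins, and Phlda1. Rgs3 was at 8.92 to 9.60 in 5 sham livers, at 7.33 in sham replicate 1 and at 7.36 to 8.79 in High-LET livers, a difference of −1.04 ± 0.29 (SE). Without sham replicate 1 the difference was −1.29, and Rgs3 was called with an adjusted p of 0.0978 in limma. Over all livers left out in turn the Rgs3 difference lay between −1.29 and −0.87, smallest without sham replicate 6. Its other 5 tested probes, at levels near background, had estimates between −0.06 and 0.07. Phlda1 was at 11.50 to 12.32 in the same 5 sham livers, at 9.78 in sham replicate 1 and at 9.54 to 11.93 in High-LET livers, a difference of −1.24 ± 0.35 (SE). Without sham replicate 1 Phlda1 differed by −1.52 and Foxq1 by −1.42, either with an adjusted p of 0.102 in limma. Without sham replicate 4 they differed least, by −1.07 and −0.98. Removing sham replicate 1 gave 4 calls in all, 2 higher and 2 lower, the others being ILMN_2735350 and the unnamed probe ILMN_2566321.

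Nudt7, a peroxisomal enzyme that degrades coenzyme A, had the smallest p of the named genes with lower values, at a difference of −0.49 ± 0.10 (SE). That was the value of 1 probe, and the other 3, which included the brightest, had estimates of −0.08, −0.04 and −0.04. The first probe was called at −0.53 without High-LET replicate 2 (adjusted p = 0.0824 in limma) and at −0.57 without the BeadChip of High-LET replicates 1 and 2 (adjusted p = 0.0510). The zinc finger gene Zfp655 differed by −0.39 ± 0.11 (SE), with estimates of 0.05 and −0.04 from its other probes. Plk3, a kinase of stress responses and a p53 target, differed by −0.64 ± 0.18 (SE), and by −0.48 without sham replicate 6.

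**Figure D2:**
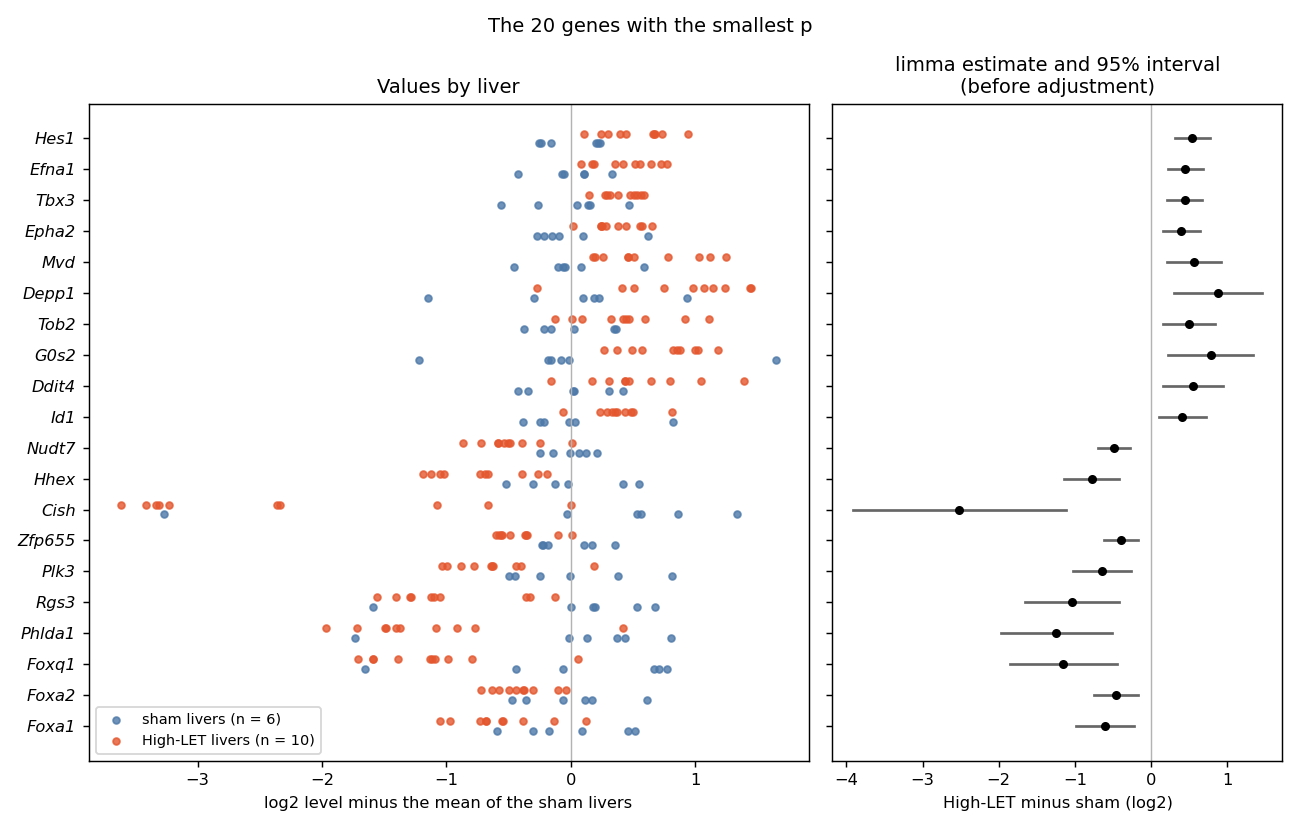
Left, level of each liver minus the mean of the sham livers (log2) for the 20 genes with the smallest p, with sham livers in blue and High-LET livers in orange. Right, the limma estimate of High-LET minus sham livers with its 95% interval before adjustment, which ran for Cish from −3.92 to −1.12, the widest of the 20.

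None of the genes that acute radiation damage is known to engage passed the threshold. Of 23 p53 targets tested 0 were called. At an unadjusted p under 0.05 Bbc3, a killer of damaged cells, and Phlda3 had higher values and Plk3 lower values, beside 3.10% of all genes at this limit, 1.50% with higher and 1.60% with lower values. Phlda3, an inhibitor of AKT signalling, was near background with levels of 6.02 to 6.21 in sham and 6.17 to 6.34 in High-LET livers, a difference of 0.13 ± 0.04 (SE). Bbc3 differed by 0.49 ± 0.18 (SE). The median over the list was 0.03, against 0.00 over all genes. It was 0.08 with BeadChip as a fixed block, 0.09 with the authors' values and 0.07 with scaling to a common median.

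Cdkn1a varied widely within both groups. Its levels were 6.05, 7.10 and 7.90 (lowest, median, highest) in sham and 6.57, 7.46 and 8.63 in High-LET livers, and the difference of 0.54 ± 0.31 (SE) had an unadjusted p of 0.102. Leaving out each liver in turn gave differences from 0.37 to 0.68, with an unadjusted p in limma from 0.0429 to 0.256. Mdm2, which degrades p53, differed by 0.12 with an interval from −0.04 to 0.27. With BeadChip as a fixed block Mdm2 differed by 0.24 (unadjusted p = 0.0144 in limma). Without single livers it lay between 0.08 and 0.17, with an unadjusted p in limma from 0.0126 to 0.340. Ccng1, a sensitive p53 target, differed by −0.01 with an interval from −0.13 to 0.10. In double-strand break repair 0 of 17 genes had an unadjusted p under 0.05, and their estimates lay between −0.12 and 0.18. H2ax, whose protein marks breaks, differed by 0.18 with an unadjusted p of 0.0548, and Atm, the kinase that marks it, by −0.07 with an interval from −0.17 to 0.03. The 13 senescence genes had a median of 0.02 and the 19 regulators of apoptosis one of 0.00, with 1 gene, Casp12, at an unadjusted p under 0.05.

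Of 20 cell cycle genes 15 had lower and 5 higher estimates, with a median of −0.06. The median was −0.03 without sham replicate 5, with 13 lower, and −0.13 with the authors' values. The replication helicase subunits Mcm6 and Mcm5 had unadjusted p under 0.05, at −0.18 ± 0.05 (SE) and −0.24 ± 0.09 (SE). For Mcm6 the mean levels were 6.55 in High-LET and 6.73 in sham livers, and its other 2 probes had estimates of −0.04 and −0.03. The list has 9 further members, Ccna2 and Pcna among them, that were not tested.

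Inflammatory genes had their highest values in a few irradiated livers. In the interferon response 26 of 28 genes had higher estimates, with a median of 0.08, and 0 were called. Usp18, a brake on interferon signalling, Ifi27 and Isg15 had unadjusted p under 0.05, with differences of 0.34 ± 0.12, 0.40 ± 0.16 and 0.42 ± 0.19 (SE). The mean level of the list was 8.53 in High-LET replicate 5 and 8.46 in High-LET replicate 9, and at most 8.27 in the other 8 and 8.15 in sham livers. Without High-LET replicate 5 the median was 0.04, with 23 of 28 genes higher. Without sham replicate 5 it was 0.05, with 22 higher and 0 at an unadjusted p under 0.05. Within the 3 shared BeadChips the medians were −0.25, 0.34 and 0.26, so the sign was not common to them.

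The same 2 livers stood apart in the MHC class II genes, which present antigen and mark immune cells. Their mean levels were 8.72 and 8.25, against 7.10 to 7.56 in the other 8 High-LET and 7.11 to 7.65 in sham livers. Cd74, the invariant chain of MHC class II, was at 11.18 and 10.58 in them and at 9.04 to 9.73 in sham livers. Without High-LET replicate 5 the median difference of the list went from 0.12 to −0.01. High-LET replicate 5 also had the highest acute-phase level, 12.20 against at most 11.58 in the other High-LET livers and 11.64 in sham livers, and Lcn2, an iron-binding acute-phase protein, at 11.80 against 7.54 to 8.56 in the other High-LET and 7.31 to 9.18 in sham livers. The median difference of the acute-phase list was 0.00, and −0.03 without High-LET replicate 5. The group differences were within their errors, at 0.34 for Lcn2 (interval −0.73 to 1.40), which was −0.04 without High-LET replicate 5, and 0.15 for Cd74 (−0.47 to 0.77), which was −0.04 without that liver. Of 17 complement genes 1, Mbl2, had an unadjusted p under 0.05.

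Among metabolic programmes cholesterol synthesis had the highest median, 0.16, with 13 of 17 genes higher and 0 called. At an unadjusted p under 0.05 there were 5 genes with higher values, next to 1.50% of all genes. Mvd is given above. Hsd17b7 and Lss, later enzymes of the pathway, differed by 0.19 ± 0.07 and 0.30 ± 0.12 (SE). Fdps, which makes farnesyl diphosphate, differed by 0.19 ± 0.08 (SE), and Srebf2, the factor that induces the pathway, by 0.21 ± 0.09 (SE). The mean level of the list was 9.11 to 9.56 in sham and 9.24 to 9.68 in High-LET livers, and the groups overlapped. With BeadChip as a fixed block the median was 0.07, and within the 3 shared BeadChips it was 0.11, −0.16 and 0.22. Without single livers it stayed between 0.11 and 0.20.

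The lists for other functions of hepatocytes had medians near 0. The medians were 0.03 over 20 genes of fatty acid synthesis and storage, −0.01 over 18 of fatty acid oxidation and ketogenesis, 0.03 over 12 of glucose metabolism, −0.04 over 14 of bile acid synthesis and transport and −0.01 over 19 of CAR and PXR xenobiotic metabolism. Genes beyond an unadjusted p of 0.05 were G0s2, Fgf21, a fasting hormone (0.48 ± 0.21, SE), and Alas1, the first enzyme of haem synthesis (−0.82 ± 0.39, SE). With BeadChip as a fixed block Fgf21 differed by 0.19. Alas1 differed by 0.47, −0.31 and −2.79 within the 3 shared BeadChips, and by −0.51 without sham replicate 6 (unadjusted p = 0.207). Zonal genes had medians of 0.00 near the central vein (14 genes) and 0.01 near the portal vein (12 genes).

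Male-biased liver genes had a median of −0.03 over 17 genes and female-biased genes one of 0.01 over 9. Cyp4a12a, an arachidonic acid hydroxylase of male mice, differed by −0.13 ± 0.06 (SE). The medians were 0.01 over 18 NRF2 antioxidant genes, 0.03 over 20 of heat shock and unfolded protein response, 0.02 over 14 of ribosomal proteins, −0.01 over 23 of oxidative phosphorylation and 0.00 over 16 of matrix and fibrosis. In the 14 immediate early genes, which react within minutes to stimulation, it was 0.08, with Zfp36 higher and Myc lower at an unadjusted p under 0.05. None of these lists had a called member. Acta2, the actin of activated stellate and smooth muscle cells, had the largest estimate among matrix genes, 0.71 ± 0.35 (SE), with levels of 6.69 to 9.47 in sham and 7.24 to 9.13 in High-LET livers. Its other probes had estimates of 0.31, 0.05 and 0.00, and with BeadChip as a fixed block the first differed by 1.23 (unadjusted p = 0.0132).

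**Figure D3:**
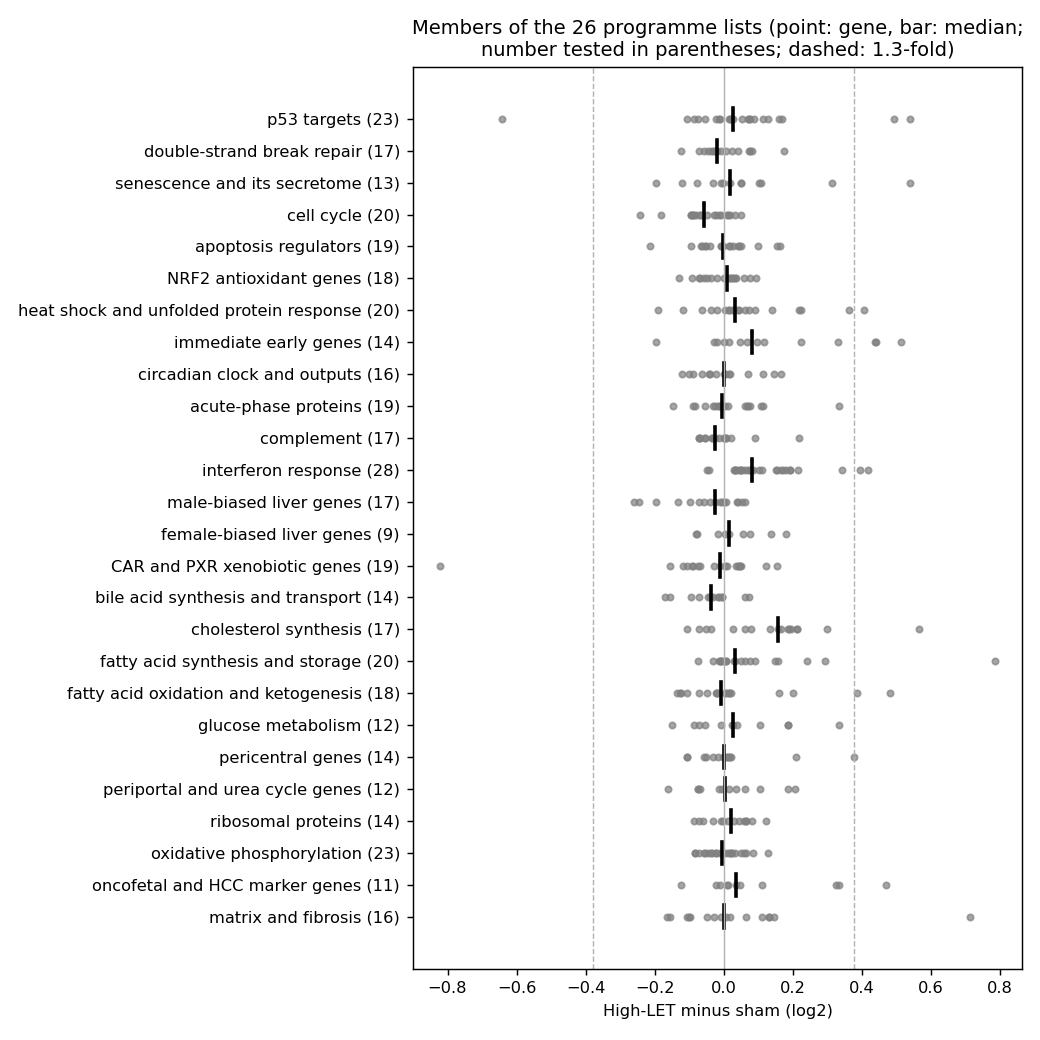
Difference of High-LET minus sham livers (log2) for each tested member of the 26 programme lists, with the median as a bar, the number of genes tested in parentheses and dashed lines at a 1.3-fold change. The medians lie between −0.06 and 0.16, and the members farthest out are single genes such as Alas1 at −0.82 and G0s2 at 0.79.

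Clock genes varied widely between livers. The 16 tested had a median difference of 0.00, which was 0.19 with BeadChip as a fixed block and 0.61, −0.12 and 0.34 within the 3 shared BeadChips. Of these 12 spanned more than 2-fold among the 16 livers and 6 more than 4-fold, where 5.58% and 0.535% of all probes did. Dbp, a clock-driven transcription factor, ranged from 8.43 to 13.22 in sham livers and from 7.61 to 12.88 in High-LET livers, a difference of −0.10 with an interval from −1.67 to 1.47.

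In Ciart, a repressor of the clock, 3 livers stood apart. Its promoter is shown because the E-box CACGTG, the letters that the clock activators CLOCK and BMAL1 bind, is in it 3 times. The bases are those of RefSeq, build GRCm38.p6, the 250 bases before the start of the gene on the minus strand at chr3:95882229-95882478, with the E-boxes in capitals.
Ciart: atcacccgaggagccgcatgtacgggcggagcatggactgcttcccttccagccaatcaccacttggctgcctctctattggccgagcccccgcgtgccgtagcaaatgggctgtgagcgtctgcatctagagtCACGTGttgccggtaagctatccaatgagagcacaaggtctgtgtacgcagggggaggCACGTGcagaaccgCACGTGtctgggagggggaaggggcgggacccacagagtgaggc
The E-boxes begin 116, 58 and 44 bases before the start. CACGTG, which reads the same on both strands, was found in 6.02% of the 32851 windows of this length and 3 or more times in 0.0609%. In Dbp and Usp2, a deubiquitinase under clock control, this window held none, and in the matching window of 1 of the Per1 entries it was found once.

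Ciart was at 9.57 in sham replicate 3, 8.80 in High-LET replicate 3 and 7.58 in High-LET replicate 10, and at 5.96 to 6.50 in the other 13 livers. Usp2 gave the same 3 livers, at 10.66, 9.62 and 8.04, with the others at 6.43 to 6.87. Per1, a repressor of the clock, was at 8.68, 8.84 and 8.17 in them and at 6.34 to 7.95 elsewhere. Arntl, which encodes BMAL1 and peaks at the opposite time of day, was lowest in the same livers, at 5.86, 6.06 and 6.58, with the others at 6.90 to 7.69. These livers lay on 3 different BeadChips and in both groups. Without them the differences were −0.30 for Dbp (interval −1.41 to 0.80), 0.04 for Usp2, 0.04 for Ciart, −0.08 for Per1 and 0.04 for Arntl, and the median of the clock list was 0.01. Clock, with lower values, and Npas2, with higher, then had an unadjusted p under 0.05. Without sham replicate 3 alone the median was 0.13, and without High-LET replicate 3 alone −0.08. Without all 3 the comparison gave 0 calls, with 836 probes (3.58%) at an unadjusted p under 0.05.

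**Figure D4:**
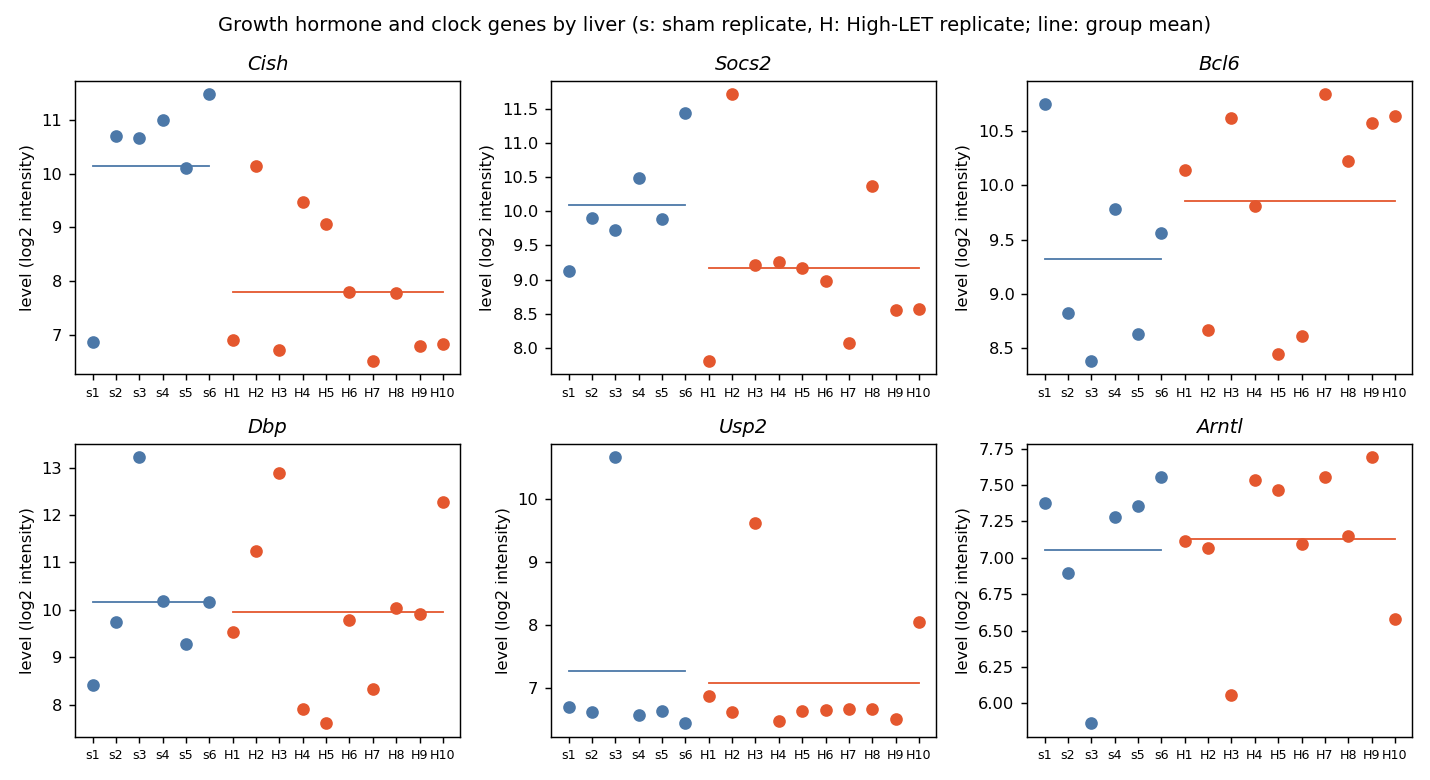
Level (log2 intensity) of Cish, Socs2 and Bcl6 (top) and of Dbp, Usp2 and Arntl (bottom) in each of the 6 sham (s1 to s6) and 10 High-LET livers (H1 to H10), with group means as lines. Cish is at 6.86 in s1 and at 10.11 or above in the other sham livers, and Usp2 is at 10.66, 9.62 and 8.04 in s3, H3 and H10.

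None of the cell type markers passed the threshold. In bulk liver, fewer cells of a type and less RNA per cell cannot be told apart. Hepatic tissue was borne out by hepatocyte markers, of which 9 of 10 were above background on at least 6 livers. Their mean levels were 12.17 to 12.49 in sham and 12.18 to 12.51 in High-LET livers. High-LET tumours, at 11.70 to 12.35, overlapped these ranges, so the markers do not tell normal liver from tumour. In Kupffer cells and macrophages 7 of 9 markers had lower estimates, with a median of −0.10. Cd163, a scavenger receptor, differed by −0.28 ± 0.09 (SE) and was the marker of this list with an unadjusted p under 0.05. Within the 3 shared BeadChips the median was −0.55, 0.17 and 0.05.

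The medians were 0.04 for T and NK cells (9 markers), 0.04 for B and plasma cells (4), 0.02 for neutrophils (6), −0.12 for red cell precursors (5), −0.01 for endothelium (10) and 0.07 for bile duct epithelium (4). Klrb1c, a receptor of NK cells, differed by −0.13 ± 0.05 (SE) and was the T and NK marker with an unadjusted p under 0.05. With the authors' values the median was 0.14 for T and NK cells and −0.25 for red cell precursors, whose 5 markers all had lower estimates. Of neighbouring tissues, 1 of 7 skeletal muscle genes was above background on at least 6 livers, Mylpf on all 16, while Acta1, Ckm and Myl1 were above it on 0. Of 5 fat genes Lep was above it on all 16 livers and Adipoq on 1. Of 7 pancreatic genes 4 were above it on at least 6 livers, Cela1 on 16, Cpb1 on 14, Cela3b on 11 and Ctrb1 on 9, and Prss2 on 0. Exocrine pancreas had a median of 0.03, and the list levels were 7.23 to 7.41 in sham and 7.14 to 7.54 in High-LET livers.

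The levels of tumour genes overlapped between irradiated and sham livers. Tumour genes were taken from samples outside the comparison, tumours against tumour-free livers of mice given low-LET γ-rays. The 3 tumours had doses of 2 to 3 Gy and the 4 tumour-free livers of 3 to 7 Gy, so dose also differed between them. In these tumours 1369 probes were higher and 1500 lower at an adjusted p under 0.1 in limma and a fold above 1.3. Of the probes higher in tumours 1212 were tested in the 16 livers. Their median difference between High-LET and sham livers was 0.01, and 53.3% had a higher estimate. For the 1500 lower in tumours the median was 0.00, and 49.7% had a higher estimate. Among probes more than 2-fold apart in tumours, the medians were 0.02 for the 492 tested that were higher, of which 56.3% had a higher estimate, and −0.02 for the 442 that were lower, of which 43.2% did.

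The mean level of the first set was 8.15 ± 0.05 (SD, n = 10) in High-LET and 8.15 ± 0.05 (SD, n = 6) in sham livers. It ran from 8.11 to 8.24 and from 8.12 to 8.25, while the lowest of the 14 tumours was at 8.27. These tumours were 7 High-LET (0.1 to 1 Gy), 3 Low-LET (2 to 3 Gy) and 4 spontaneous. Among 11 oncofetal and tumour marker genes 0 had an unadjusted p under 0.05, with a median of 0.04. Gpc3, a glypican of fetal liver and HCC, was at 5.92 to 7.27 in High-LET and at 6.21 to 6.56 in sham livers, a difference of −0.02 with an interval from −0.34 to 0.29. The highest value belonged to High-LET replicate 2. Afp, α-fetoprotein, was above background on 0 of the 16 livers. Cyp2b9, a female-biased cytochrome P450, differed by 0.18 with an interval from −0.19 to 0.55, and Mup20, a male urinary protein, by −0.20 with an interval from −0.67 to 0.27.

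**Figure D5:**
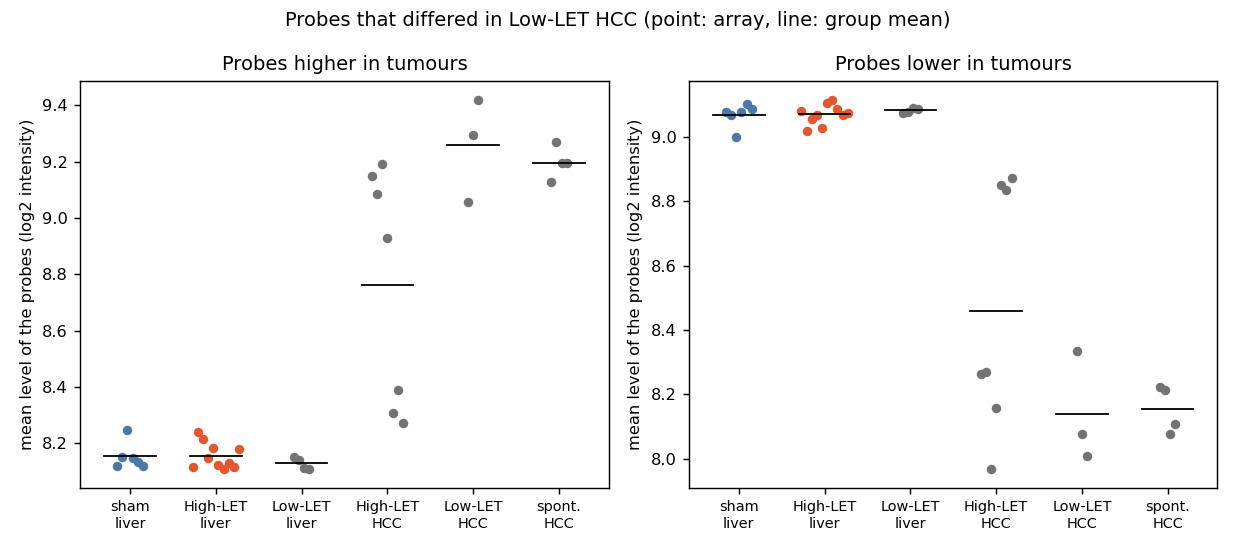
Mean level (log2 intensity) on each of the 34 arrays of the probes that were higher (left) or lower (right) in Low-LET HCC than in Low-LET livers, with group means as lines. Low-LET samples chose the probes, so their own positions are fixed by the choice. High-LET livers span 8.11 to 8.24 in the left panel and sham livers 8.12 to 8.25.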

How the data were processed

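Total liver RNA was labelled and hybridized to Illumina mouse BeadChips, 1 array per mouse. The deposited intensity values are bead signals summarized by the authors in GenomicStudio, without background subtraction. The deposited log2 values are the same arrays after the authors' background correction with MBCB and quantile normalization, and were used as an alternative. Intensities of all 34 arrays were corrected with normexp (offset 50) and quantile normalized in limma 3.58.1 (R 4.3.3, statmod 1.5.0, data.table version 1.17.8). Probes above a background limit on at least 6 of the 16 livers were kept, the limit being the mode of an array's signals plus 1.645 SD of those below the mode. Adding the offset shrinks differences of dim probes. Median intensities were 93.6 to 124 per array, and the number of arrays limits precision. The main fit had a mean per group and BeadChip as a random block. Calls required a Benjamini-Hochberg adjusted p below 0.1 with a change of more than 1.3-fold. The fit was tested on simulated data of this design.

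Of 45281 probes, 34885 had 1 symbol, 18 several and 10378 none in the platform annotation, with symbols updated through RefSeq gene IDs. For gene lists (26 programmes and 12 cell types) the brightest probe stood for a gene. Named genes were the 10 per direction with the smallest p and a fold above 1.3, since 0 were called, 2 members per list with the smallest p, and Cdkn1a, Mdm2, Ccng1, Gpc3, Afp, Lcn2, Cyp2b9 and Mup20. The livers, lists and rules were chosen with earlier results of these data known. Genes outside the rule (such as growth hormone, clock and unnamed probes) were named after their values were seen. The labels title each sample with its own animal number, and replicate numbers here follow accession order and only name a liver. Principal components and counts above background were tested by exact permutation of 8008 splits. Figures were drawn with matplotlib 3.10.9.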

Additional observations from a re-analysis of the deposited data

Results flagged for a closer look

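A liver was looked for that lay far from the others of its group (a gap to the next liver that is a larger share of the group's range than Dixon's 95% critical value for 6 or 10 samples). In 98 sets of values, taken from named genes, mean levels of lists, principal components and probes above background, 18 such livers were found, and chance gives about 1 in 20 groups. Some of the sets were genes named after their values were seen, so the count cannot be measured against that rate. The sets are not independent, since genes that vary together flag the same liver.

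Sham replicate 1 was the lowest sham liver for Cish (6.86, next 10.11), Rgs3 (7.33, next 8.92) and Phlda1 (9.78, next 11.50), and the highest for Id1 (7.88, next 7.09) and Angptl8 (11.93, next 10.30), which encodes an inhibitor of triglyceride clearance. In each of the 5 its level lay on the side of the High-LET livers.

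Sham replicate 3 was the highest sham liver for Dbp (13.22, next 10.18), Usp2 (10.66, next 6.69) and Ciart (9.57, next 6.28) and in the mean level of the clock genes (8.62, next 7.70). High-LET replicate 3 was the highest of its group for Usp2 (9.62, next 8.04).

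High-LET replicate 5 was the highest of its group for Lcn2 (11.80, next 8.56) and for the mean level of the acute-phase genes (12.20, next 11.58). High-LET replicate 4 was the highest for Phlda1 (11.93, next 10.74), Foxq1 (11.38, next 10.53) and Ccng1 (8.85, next 8.64). High-LET replicate 10 was the highest for Plk3 (9.89, next 9.31), High-LET replicate 6 the lowest for Mdm2 (9.19, next 9.41), and sham replicate 5 the lowest sham liver for Mup20 (10.47, next 11.27).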

How the results depend on the processing

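The count of called probes was recomputed under 40 alternatives and was 0 in 34 of them, among these BeadChip as a fixed block, no BeadChip term, the 9 livers of the shared BeadChips, the authors' values, other normalizations, no filter, all 20 livers, all 34 arrays, array weights and an ordinary linear model. It was 1 with probes above background on all 16 livers. Leaving out each liver gave 0 to 4, with 4 without sham replicate 1 and 2 without High-LET replicate 2, and leaving out each BeadChip gave 0 or 1, with 1 without BeadChip 1 and 1 without BeadChip 3. Without sham replicate 1 and High-LET replicate 5 together, tried after seeing the data, it was 3. The unadjusted p was under 0.05 for 435 probes with scaling to a common median, 344 in the fit of all 34 arrays and 1810 without the filter. All 40 named probes whose interval excluded 0 kept their direction in the 22 recomputed values each. These probes were selected by that interval on the same livers, so a change of direction was unlikely from the outset. Of 114 list medians 9 moved by more than the SD of the sham livers, the farthest being that of the oncofetal genes, to 0.22 with the authors' values. The p53 targets moved in every alternative used for lists, from 0.03 to 0.08 with the fixed block. They moved to 0.09 with the authors' values and to 0.07 with scaling to a common median. List medians without single livers and clock genes without the 3 livers that stand apart in them were also computed after seeing the data. Differences within single BeadChips gave values but no count. No paired analysis was possible because the labels give each mouse its own number and so share none between groups. With 6 sham livers, differences in variable genes such as Cish were known only to within 1.40 on the log2 scale.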
